A study of Mus musculus with 24 samples.

Results

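Mouse embryos at embryonic day 9.5 (E9.5) that carried a constitutive knockout of Cmtr2 were compared with wild-type embryos of the same stage. The comparison rests on 8 RNA-seq libraries, 4 knockout (KO1 to KO4) and 4 wild type (WT1 to WT4), chosen as all E9.5 embryo libraries of a series of 24. The remaining 16 libraries, from E8.5 embryos and from E9.5 yolk sacs with the same design, were used only to test whether an effect differed by stage or tissue. Per the series description, the Cmtr2-/- embryos looked like their littermates at E8.5 and were smaller at E9.5, and the E9.5 embryos came from 4 litters. The litter of each library and the part of the gene removed by the allele are not given in the labels. Genotype was read from the titles. The tag field for genotype states the reverse of the title in 24 of 24 libraries, and Cmtr2 itself, given below, sided with the titles here. Total RNA was extracted with TRIzol and a Direct-zol kit, and libraries were made with a NEBNext Ultra kit, per the labels. Whether each library was 1 embryo is not stated, so the p-values speak to variation among these libraries, which may be technical.

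CMTR2 is the methyltransferase that modifies the second transcribed nucleotide of capped RNA in vertebrates, next to the first-nucleotide enzyme CMTR1. The transcription factor p53 is held low by MDM2 in unstressed cells and, when stabilised, induces genes that stop the cell cycle, start apoptosis and regulate its own level. Hypoxia-inducible factors are degraded after hydroxylation by oxygen-dependent EGLN enzymes and otherwise induce glucose transporters, glycolytic enzymes, mitophagy receptors and collagen-modifying enzymes. A mouse embryo at this stage relies strongly on glycolysis, has a beating heart, and is supplied with primitive red cells from the yolk sac.

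Cmtr2 (ENSMUSG00000046441, chromosome 8, 110215665 to 110224486, plus strand, GRCm38) measured 0.591, 0.418, 0.692 and 0.458 FPKM (fragments counted on a gene relative to its length and to the library's total, then scaled between libraries) in KO1 to KO4, against 3.82, 3.97, 3.60 and 2.64 in WT1 to WT4. No KO library reached any WT library, and the KO mean was 15.4% of the WT mean. The difference was -1.94 on the log2(FPKM + 0.5) scale (SE 0.19, adjusted p = 0.00146, limma with Benjamini-Hochberg adjustment), and an exact two-sided permutation test gave p = 0.0286, the smallest that 4 against 4 allows. Cmtr1 was under the expression filter in both groups.

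The libraries differed in their levels of tail and heart marker genes, and whether tissue content underlies this was not tested. T (brachyury, a transcription factor of the tailbud) measured 8.86, 0.990, 10.1 and 10.4 FPKM in KO1 to KO4, against 0.511, 14.3, 1.23 and 18.6 in WT1 to WT4. Hoxc10, a posterior Hox gene, measured 15.9, 0, 7.04 and 6.44 FPKM in KO1 to KO4, against 0.0295, 9.88, 0.877 and 12.95 in WT1 to WT4. Myl7, the atrial myosin light chain of the early heart, measured 71.3, 307, 222 and 401 FPKM in KO1 to KO4, against 2.58, 207, 5.16 and 223 in WT1 to WT4. WT1 and WT3 were therefore low in both tail and heart genes and KO2 was low in tail genes alone, and the groups overlapped for all of these genes. Differences of T (log2 0.43, adjusted p = 0.783 in limma), Hoxc10 (0.52, 0.787) and Myl7 (2.81, 0.160) did not pass, and each was below 0 without WT1, WT3 and KO2. Of the genes described below that passed with all 8 libraries, only Cdkn1a, Phlda3, Ccng1, Ddit4l, Sesn2, Zmat3, Psrc1, Gtse1, Eda2r, Pmaip1, Tnfrsf10b, Aen, Ei24, Pgm1, Bnip3, Ndufa4l2, Idi1, Ahi1, Ak1, Cox6b2, Azin2, Dcxr, Serpine2 and Slc19a2 also passed without those 3 libraries, and every other KO minus WT call on a single gene below was lost there.

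Summed marker levels moved in several tissues at once. Primitive red cell markers summed to 1205 to 12588 FPKM in KO and 5773 to 10543 in WT, with KO4 highest and KO3 lowest. Forebrain markers summed to 9.66 to 18.2 in KO and 7.49 to 58.7 in WT, with WT1 highest. Visceral endoderm markers of the yolk sac summed to 30.9 to 430 in KO (KO2 highest) and 0.742 to 267 in WT (WT2 highest), and the decidua markers (Prl8a2, with Dcn and Des, which embryos also make) to 12.4 to 88.1 in KO and 4.87 to 26.3 in WT. WT1 was the extreme library for 6 of the 9 marker sets, highest for forebrain and lowest for heart, tailbud, visceral endoderm, trophoblast and decidua. The 4 macrophage markers Csf1r, Cx3cr1, Mrc1 and Ptprc were each under 1 FPKM in every library. In such bulk libraries, fewer cells of a type and less RNA per cell cannot be told apart. The files held 15555422 to 20390509 assigned fragments per library.

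**Figure D1:**
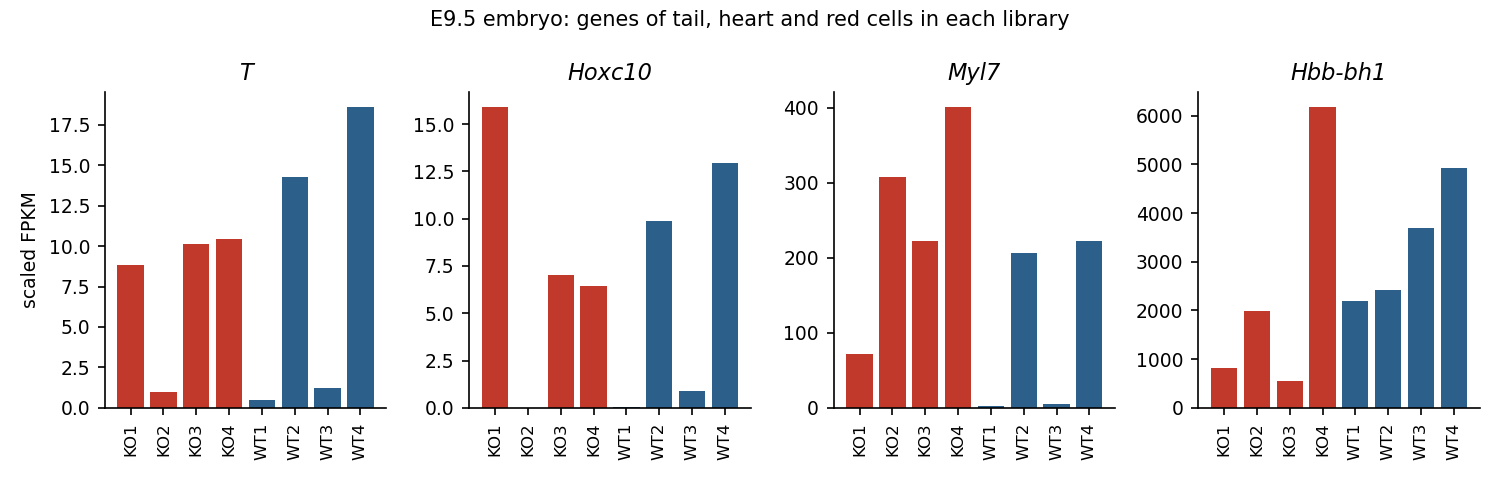
Scaled FPKM (linear axes) of T, Hoxc10, Myl7 and the embryonic globin Hbb-bh1 in each library, KO1 to KO4 on the left and WT1 to WT4 on the right, 1 bar per library. WT1 and WT3 are low in T, Hoxc10 and Myl7, KO2 is low in T and Hoxc10 only, and Hbb-bh1 ranges from 558 (KO3) to 6176 (KO4) within the KO group.

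Of 12027 genes tested, 1637 (13.6%) differed at an adjusted p under 0.05 in limma, of which 884 (7.35%) rose and 753 (6.26%) fell in KO. A change of at least 2-fold was reached by 158 risen and 81 fallen genes. The median log2 difference over all tested genes was 0.0074. Every KO library lay above every WT library for 1350 genes (11.2%) and below every WT library for 1315 (10.9%). Without WT1, WT3 and KO2, 35 genes (0.291%) passed, 28 higher and 7 lower. All 1637 genes kept their sign there, which is no separate test, because the libraries left are part of those that made the calls. The count ranged from 97 without WT2 to 2727 without WT1, and 87 genes (71 risen, 16 fallen; 0.723%) passed in all 8 fits that each left out 1 library. Rescaling to TPM, which fixes the sum of every library, shifted the median of all genes by -0.317 and gave 137 higher and 3145 lower genes, against 884 and 753 with scaling by median ratios.

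**Figure D2:**
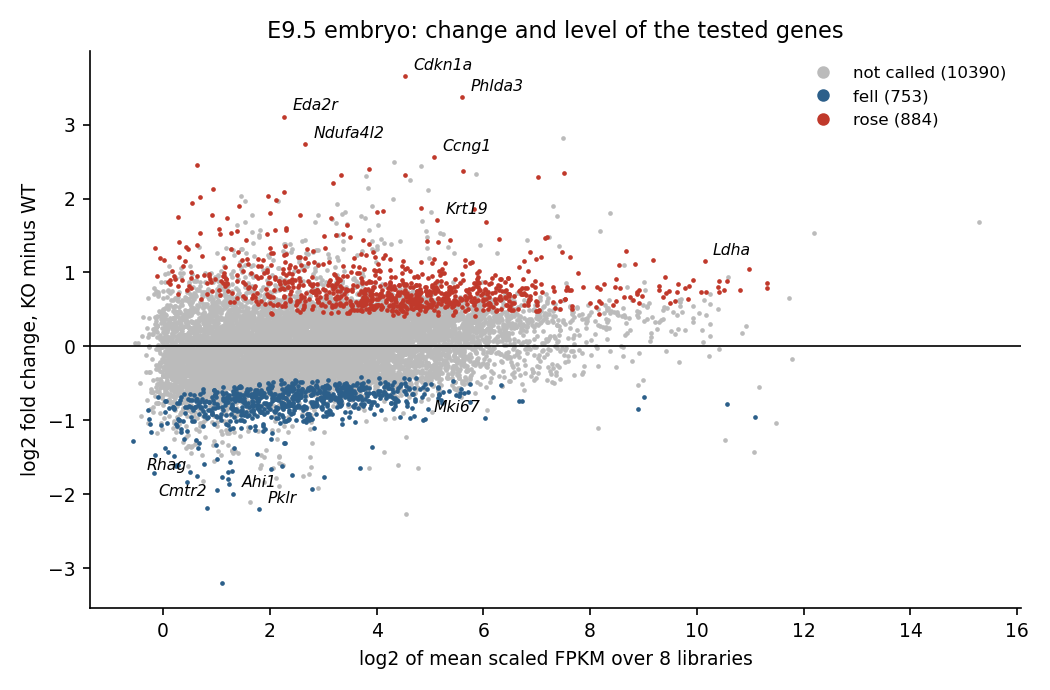
Mean level over the 8 libraries (x axis, log2 scaled FPKM) against the log2 difference KO minus WT (y axis), 1 point per tested gene: 884 risen genes in red, 753 fallen genes in blue and the genes that did not pass in grey. Cdkn1a and Phlda3 stand highest, and the risen genes gather towards high levels.

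The p53 targets that arrest or restrain growth rose together in KO embryos. Of 18 tested genes, 11 rose and none fell, beside 7.35% risen and 6.26% fallen of all genes. The median log2 difference was 1.27 against 0.0074 for all genes. Cdkn1a, which encodes the cyclin-dependent kinase inhibitor p21, measured 42.6, 39.2, 48.0 and 42.9 FPKM in KO1 to KO4, against 2.76, 3.39, 2.77 and 2.95 in WT1 to WT4. The spread within each genotype was small beside the gap between them, and the log2 difference was 3.66 (SE 0.12, adjusted p = 4.33e-07, limma). Phlda3, a repressor of the kinase AKT, measured 77.2, 114, 84.2 and 81.3 FPKM in KO1 to KO4, against 6.43, 8.55, 8.17 and 9.39 in WT1 to WT4 (log2 3.37, SE 0.16, adjusted p = 8.15e-06, limma). Ccng1, the atypical cyclin G1, measured 58.9, 46.2, 50.1 and 76.6 FPKM in KO1 to KO4, against 6.92, 13.4, 8.44 and 9.26 in WT1 to WT4 (log2 2.56, SE 0.22, adjusted p = 0.000654, limma). No KO library of these genes came near the WT range.

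The stress-induced inhibitors of the growth kinase complex mTORC1 were among these genes. Sesn2, a leucine sensor that restrains mTORC1, measured 25.4, 28.6, 28.9 and 26.5 FPKM in KO1 to KO4, against 8.42, 5.44, 9.99 and 6.12 in WT1 to WT4 (log2 1.84). Ddit4l, a relative of the mTORC1 inhibitor Ddit4, rose by 2.04 on the log2 scale, with 5.95 to 7.03 FPKM in KO and 0.586 to 2.36 in WT. The RNA-binding protein gene Zmat3 (1.65), the stress genes Zfp365 (1.54) and Trp53inp1 (1.52), the spindle-associated genes Psrc1 (1.42) and Gtse1 (1.13) and the polo-like kinase gene Plk2 (0.50) completed the group that rose. The family was not uniform: Sesn1 had a log2 difference of 0.04 (adjusted p = 0.91 in limma), Btg2 of 0.25 and Tigar of 0.05, and Sesn3, which was not on the list, fell by 0.81 with 2.84 to 4.20 FPKM in KO and 5.78 to 7.88 in WT. The count of 11 stayed between 10 and 12 in the fits that each left out 1 library and was 8 without WT1, WT3 and KO2.

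A p53 consensus element, 2 elements of 10 bases with a gap of up to 13 bases, was searched for in the RefSeq promoters of GRCm38.p6, which run from 250 bases before to 50 bases after each start. It was found in 24 of 32851 promoters (0.0731%), and among the 42 p53-list genes with a promoter only in that of Cdkn1a, at 1 of its 2 listed starts. Sequence outside these promoters was not searched, so a lack of a match says nothing about elements elsewhere. The stretch is shown because Cdkn1a had the smallest p of all genes. Capitals mark the 2 elements, which are 12 bases apart. A match describes the letters and is not evidence of binding.
Cdkn1a, chr17:29090891-29090950, plus strand: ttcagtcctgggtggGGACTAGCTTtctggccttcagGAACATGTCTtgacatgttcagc

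Genes of the apoptotic arm also rose. Of 16 tested members 7 rose and none fell, beside 7.35% risen of all genes, with a median log2 difference of 0.62. Eda2r, the ectodysplasin A2 receptor, measured 9.95, 7.84, 6.96 and 11.3 FPKM in KO1 to KO4, against 0.497, 0.483, 0.560 and 0.841 in WT1 to WT4 (log2 3.11, SE 0.19, adjusted p = 5.85e-05, limma). The death receptor gene Tnfrsf10b measured 7.83, 6.55, 7.71 and 6.73 FPKM in KO1 to KO4, against 2.003, 1.51, 1.12 and 1.28 in WT1 to WT4 (log2 1.98). Both receptors were separated between genotypes in all libraries. Bax, which permeabilises the outer mitochondrial membrane, measured 96.2, 133.9, 93.3 and 137.1 FPKM in KO1 to KO4, against 40.6, 33.5, 43.0 and 48.4 in WT1 to WT4 (log2 1.46, SE 0.18, adjusted p = 0.00448, limma).

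The BH3-only genes, whose products activate BAX, varied more between libraries. Pmaip1 (NOXA) measured 8.76, 6.50, 7.59 and 8.79 FPKM in KO1 to KO4, against 0.702, 2.83, 0.614 and 2.82 in WT1 to WT4 (log2 2.09), so the WT values fell into a lower and a higher pair. Bbc3 (PUMA) measured 20.5, 24.4, 6.77 and 17.7 FPKM in KO1 to KO4, against 3.74, 5.10, 7.29 and 5.55 in WT1 to WT4, and KO3 lay below WT3 (log2 1.49, SE 0.35, adjusted p = 0.02995, limma). The nuclease gene Aen rose by 1.18 and Ei24 by 1.05. Apaf1, the apoptosome scaffold, had a log2 difference of 0.07 and Perp, a junction protein, of 0.40, and neither passed. Without WT1, WT3 and KO2, 5 of the 7 passed.

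The feedback and repair genes of the p53 circuit did not share this pattern. Of 16 tested members 2 rose and 2 fell, with a median of 0.06, where 7.35% of all tested genes rose and 6.26% fell. Mdm2, the main ubiquitin ligase of p53, had a log2 difference of -0.00 (adjusted p near 1 in limma), Trp53 of 0.29 (adjusted p = 0.26) and Mdm4 of -0.56, none of which passed. Rps27l rose by 1.11, with 357 to 700 FPKM in KO and 179 to 335 in WT, and the DNA methyl-repair gene Mgmt by 0.95. The ubiquitin ligase genes Trim24 (-0.80) and Cop1 (-0.77), both able to target p53, fell, Cop1 with 3.11 to 3.85 FPKM in KO and 5.57 to 7.02 in WT. None of the 4 passed without WT1, WT3 and KO2.

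**Figure D3:**
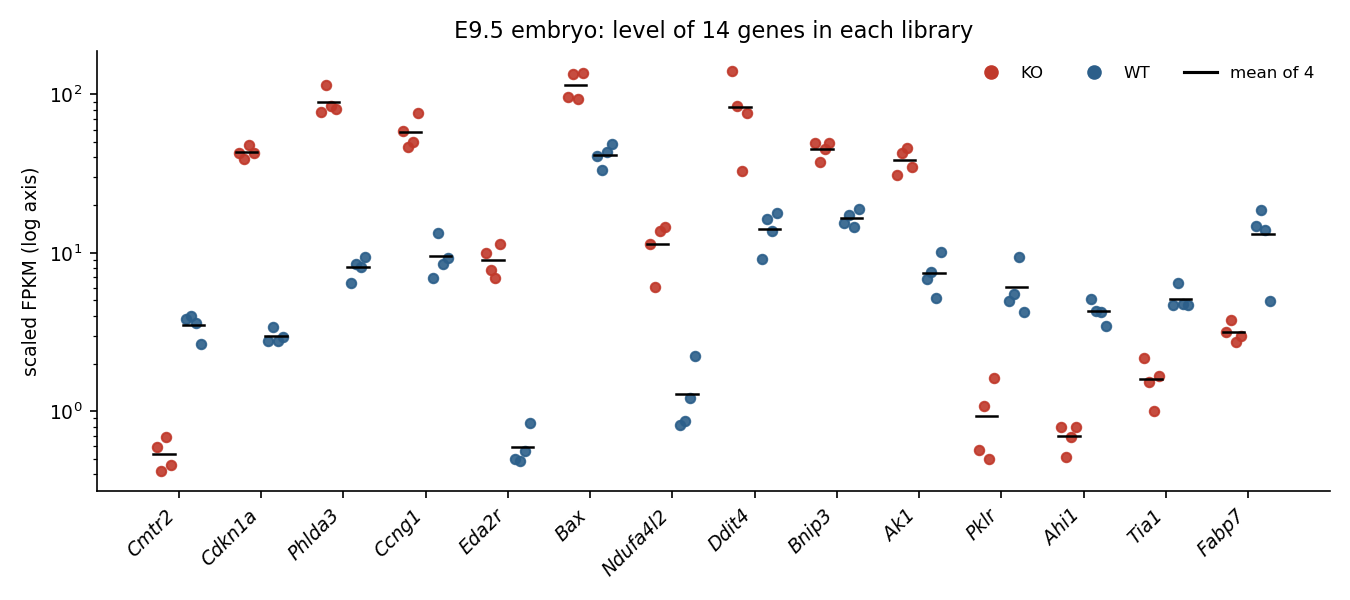
Scaled FPKM (log axis) of 14 genes, 1 dot per library, KO on the left and WT on the right of each panel, with a bar at the mean of 4. Cdkn1a, Phlda3, Ccng1, Eda2r, Bax, Ndufa4l2, Ddit4, Bnip3 and Ak1 are higher in every KO library than in any WT library, and Cmtr2, Pklr, Ahi1, Tia1 and Fabp7 are lower in every KO library.

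Glucose transport and glycolysis genes rose at nearly every step. Of 25 tested genes 18 rose, beside 7.35% of all genes, and none fell. All 25 differences were above 0, with a median log2 difference of 0.89. The summed level of the list was 7939 to 10941 FPKM in KO and 3989 to 5332 in WT. Slc2a1, the widespread glucose transporter GLUT1, measured 216, 382, 306 and 202 FPKM in KO1 to KO4, against 112, 104, 102 and 150 in WT1 to WT4 (log2 1.21, SE 0.22, adjusted p = 0.0186, limma). Ldha, the lactate dehydrogenase subunit favouring lactate, measured 1243, 1596, 1739 and 1667 FPKM in KO1 to KO4, against 729, 575, 639 and 872 in WT1 to WT4 (log2 1.16, SE 0.18, adjusted p = 0.0127, limma). Slc16a3, the lactate exporter MCT4, measured 109, 130, 67.3 and 95.3 FPKM in KO1 to KO4, against 21.3, 25.3, 32.4 and 47.5 in WT1 to WT4 (log2 1.68, SE 0.27, adjusted p = 0.0120, limma). The genotypes were separate in each of these.

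Along the pathway, the second glucose transporter Slc2a3 rose by 1.48 on the log2 scale and the glycogen-linked mutase Pgm1 by 1.45. Of the enzymes that split glucose into trioses, the isomerase Gpi1 (0.93), the phosphofructokinase genes Pfkl (1.15) and Pfkp (0.91), the aldolase genes Aldoa (1.17) and Aldoc (0.91) and Tpi1 (1.11) rose. Of the enzymes from triose to pyruvate, Gapdh (0.73), Pgk1 (0.81), Pgam1 (0.91), Eno1 (0.84) and Pkm (0.89) rose, with Gapdh at 1292 to 2113 FPKM in KO and 811 to 1190 in WT. Pdk1 (0.71), the kinase that shuts pyruvate out of mitochondrial oxidation, and Pfkfb3 (0.82), which makes the activator of phosphofructokinase, also rose. The hexokinase genes did not pass: Hk1 had a log2 difference of 0.19 and Hk2 of 0.45, with 23.7 to 42.4 FPKM in KO and 15.8 to 25.1 in WT. The second lactate transporter Slc16a1 (0.51) and the muscle-type Pfkm (0.32) also did not pass.

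The number of glycolysis genes that passed depended on single libraries. It was 5 without WT2, 7 without WT3, 8 without KO3, 9 without KO4 and 11 without KO2. Without WT1, WT3 and KO2 together 1 passed, all 25 differences were still above 0 and the median was again 0.89. With all libraries the median was 0.53 in TPM, against a shift of -0.317 for all genes, and 0.62 with quantile normalization.

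**Figure D4:**
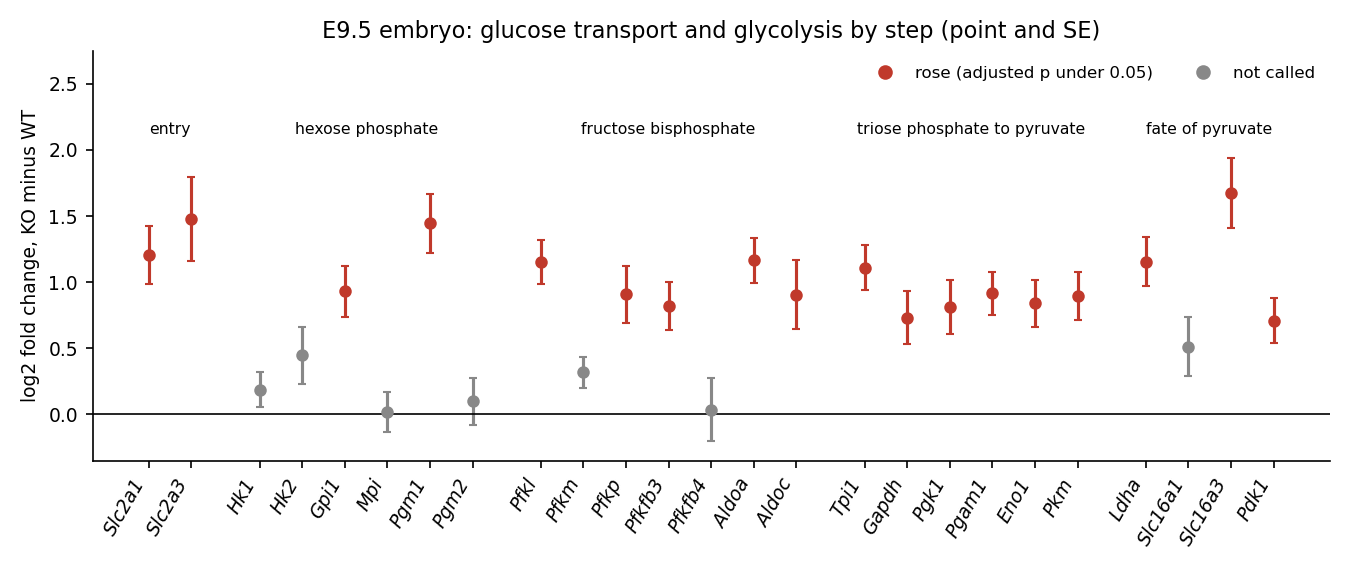
Log2 difference KO minus WT (y axis, with SE) of the 25 glucose transport and glycolysis genes in pathway order (x axis), red where the gene rose and grey where it did not pass. All points lie above 0, from 0.02 (Mpi) to 1.68 (Slc16a3), and both hexokinase genes are grey.

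Of 33 other hypoxia-inducible genes, 18 rose, beside 7.35% of all genes, and none fell, with a median log2 difference of 0.69. Ndufa4l2, a HIF-induced relative of a respiratory chain subunit, measured 11.4, 6.04, 13.7 and 14.5 FPKM in KO1 to KO4, against 0.822, 0.866, 1.21 and 2.24 in WT1 to WT4 (log2 2.74, SE 0.31, adjusted p = 0.00262, limma). Ddit4 (REDD1), an mTORC1 inhibitor, measured 140.9, 84.5, 32.9 and 76.1 FPKM in KO1 to KO4, against 9.11, 16.3, 13.7 and 17.9 in WT1 to WT4 (log2 2.38, SE 0.38, adjusted p = 0.0128, limma). Bnip3, a mitophagy receptor, measured 49.3, 37.6, 45.2 and 49.3 FPKM in KO1 to KO4, against 15.4, 17.3, 14.5 and 18.96 in WT1 to WT4 (log2 1.43, SE 0.14, adjusted p = 0.00146, limma). Ddit4 varied most among KO libraries, and in all 3 genes the lowest KO library was above the highest WT library.

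Collagen prolyl and lysyl hydroxylase genes P4ha2 (1.29), P4ha1 (0.57) and Plod2 (0.75) and the lysyl oxidase-like gene Loxl2 (0.94) rose, as did the oxygen-sensing hydroxylase genes Egln3 (1.10) and Egln1 (0.69), which are both regulators and targets of HIF. The lipid droplet gene Hilpda measured 11.9 to 15.8 FPKM in KO and 6.43 to 7.04 in WT (0.95). Other members that rose were Stc2 (1.35), Fam162a (1.18), Bhlhe40 (1.02), Ankrd37 (0.93), Ak4 (0.88) and Anxa2 (0.77). The angiogenic, vasoactive and erythropoietic factor genes Vegfa, Adm and Epo did not pass. Vegfa had 14.6 to 23.8 FPKM in KO and 13.3 to 16.5 in WT (0.28, adjusted p = 0.25, limma), Adm differed by 1.00 (adjusted p = 0.113) and Epo by 0.60. The count was lowest, at 7, without WT3, was 8 without WT2 and 9 without KO4, and was 2 without WT1, WT3 and KO2, with a median of 0.63.

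The core of the hypoxia response element, ACGTG on either strand (CACGT is the same letters on the other strand), was counted in the same RefSeq promoters. It was present in 19.6% of 32851 promoters and for 21.8% of 27025 genes with at least 1 promoter. Among hypoxia and glycolysis genes that rose, 23 of the 30 with a promoter held it (76.7%), against 10 of 18 genes of the same lists that did not pass (55.6%). The share was 43.8% among the risen p53-list genes (7 of 16), 32.2% among cytosolic ribosomal protein genes (19 of 59) and 31.4% among mitosis genes (11 of 35). Stretches of 60 bases are shown for the 6 risen genes with the largest difference whose window holds no annotated exon, chosen after their values were seen. Capitals mark the motif, on the printed strand or as its reverse complement, and a run of 6 capitals holds it on both strands. A match is not evidence that a factor binds there.
Ddit4, chr10:59951913-59951972, minus strand: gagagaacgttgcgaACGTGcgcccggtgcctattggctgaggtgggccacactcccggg
Bnip3, chr7:138909570-138909629, minus strand: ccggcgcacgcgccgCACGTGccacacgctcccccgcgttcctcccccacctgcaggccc
P4ha2, chr11:54100831-54100890, plus strand: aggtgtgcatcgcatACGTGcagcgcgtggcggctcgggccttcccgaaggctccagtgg
Fam162a, chr16:36071598-36071657, minus strand: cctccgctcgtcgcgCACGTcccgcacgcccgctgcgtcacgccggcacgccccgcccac
Aldoa, chr7:126799336-126799395, minus strand: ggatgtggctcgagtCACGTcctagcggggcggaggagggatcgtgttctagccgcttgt
Ldha, chr7:46845644-46845703, plus strand: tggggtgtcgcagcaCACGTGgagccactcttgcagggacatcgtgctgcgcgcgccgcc

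Part of the red cell genes fell in KO embryos, while KO4 kept high globin levels. Of 32 tested regulators, membrane and metabolic genes of red cells 7 fell and 1, the transporter Slc2a1, rose, with a median log2 difference of -0.85. Over all tested genes 6.26% fell and 7.35% rose. Pklr, the liver and erythroid pyruvate kinase, measured 0.568, 1.08, 0.496 and 1.61 FPKM in KO1 to KO4, against 4.99, 5.52, 9.44 and 4.24 in WT1 to WT4 (log2 -2.20, SE 0.30, adjusted p = 0.00747, limma). Rhag, a gas channel of the red cell membrane, measured 0.304, 0.401, 0.187 and 0.995 FPKM in KO1 to KO4, against 2.84, 2.37, 3.04 and 2.34 in WT1 to WT4 (log2 -1.75, SE 0.26, adjusted p = 0.0105, limma). Both were lower in every KO library. The membrane skeleton genes Ank1 (-1.37), Add2 (-1.08) and Sptb (-0.80) also fell.

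Globins did not pass in either direction (0 of 8, median -0.93). Hbb-bh1 measured 811, 1987, 558 and 6176 FPKM in KO1 to KO4, against 2200, 2410, 3688 and 4934 in WT1 to WT4 (log2 -1.03, adjusted p = 0.273, limma), so KO4 was above every WT library and the other KO libraries below. Of 19 haem and iron genes, Fech, the final enzyme of haem synthesis, alone fell (-1.35), with 6.25, 7.06, 5.69 and 15.96 FPKM in KO1 to KO4, against 20.5, 18.2, 24.0 and 22.6 in WT1 to WT4. Without KO4, 13 red cell genes passed instead of 8, while 2 passed without WT2 or WT3. The part of red cell content in the fall of these genes was not tested. Endothelial genes gave 1 rise, Etv2 (1.10), and 1 fall, Emcn (-0.73), of 36. Over all tested genes 7.35% rose and 6.26% fell, so the haem and endothelial counts were no higher than those shares. Summed endothelial markers were alike in range, 26.8 to 41.9 in KO and 27.0 to 44.2 in WT.

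Part of the translation machinery genes rose in KO. Of 80 cytosolic ribosomal protein genes 24 rose and none fell, with a median log2 difference of 0.51 and summed levels of 50977 to 77155 FPKM in KO and 41095 to 48735 in WT. Rpl36 measured 1951, 2788, 3306 and 2865 FPKM in KO1 to KO4, against 1380, 1194, 1140 and 1483 in WT1 to WT4 (log2 1.05, SE 0.20, adjusted p = 0.0193, limma). KO1 was the lowest KO library and still above all WT libraries. Rpl38 (0.94), Rpl41 (0.88), Rps2 (0.86) and Fau (0.82) followed. Of 77 mitochondrial ribosomal protein genes 11 rose, beside 7.35% of all genes (median 0.32, and -0.03 in TPM), led by Mrpl14 (0.85). That list had a median length of 2533 bases, and of 3006 tested genes of 2423 to 4160 bases 314 rose. Of 46 ribosome biogenesis genes 7 rose, beside the same 7.35% (median 0.20, and -0.16 in TPM), including the nucleolar methyltransferase gene Fbl (0.71) and Nhp2 (0.80). None of the 3 lists had a gene that fell.

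These counts depended on the libraries and the scale. No cytosolic ribosomal protein gene passed without KO2, KO3, KO4, WT2 or WT3, 7 passed without WT4, and none without WT1, WT3 and KO2. Rescaled to TPM, against a shift of -0.317 for all genes, the medians were 0.15 for cytosolic ribosomal proteins, -0.03 for mitochondrial ribosomal proteins and -0.16 for ribosome biogenesis, each above that shift, and no cytosolic ribosomal protein gene rose. With quantile normalization 1 cytosolic ribosomal protein gene rose, with a median of 0.14, and the ribosome biogenesis median was -0.03.

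Some nuclear respiratory chain genes rose and some mitochondrially encoded mRNAs fell, where 7.35% of all tested genes rose and 6.26% fell. Of 35 nuclear complex I genes 10 rose and 1 fell (median 0.50), with Ndufa7 (1.02), Ndufa11 (0.91) and Ndufv3 (0.77) highest and the iron-sulfur subunit gene Ndufs1 (-0.56) the one that fell. Of 41 genes of complexes II to V 7 rose, beside 7.35% of all genes (median 0.42), with Cox4i1 at 0.81 and Atp5d at 0.64. Of 13 mitochondrially encoded mRNAs 5 fell and none rose (median -0.52). The catalytic oxidase subunit gene mt-Co1 measured 964, 1326, 2080 and 1619 FPKM in KO1 to KO4, against 2240, 2726, 3644 and 2764 in WT1 to WT4 (log2 -0.96, SE 0.25, adjusted p = 0.0385, limma). mt-Nd4 (-0.84), mt-Nd4l (-0.80), mt-Cytb (-0.78) and mt-Nd5 (-0.68) also fell. The 15 tested mitochondrial tRNA genes, 59 to 75 bases long, had 3 that rose and a median of 0.39. Without any 1 of KO2, KO4, WT2, WT3 or WT4 none of the mitochondrial mRNAs passed, and without WT2 or WT3 1 complex I gene did, against 19 without KO1. No gene of complexes II to V passed without KO2, KO3, KO4, WT2 or WT3. Rescaled to TPM, with a shift of -0.317 for all genes, the medians were 0.15 for complex I and 0.06 for complexes II to V. Their median gene lengths were 1569 and 1831 bases, and of 3006 tested genes of up to 2422 bases 367 rose.

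Mitosis genes were lower in part. Of 42 tested, 16 fell and none rose, with a median log2 difference of -0.39, where 6.26% of all tested genes fell and 7.35% rose. The proliferation marker gene Mki67 measured 26.3, 19.9, 15.5 and 19.5 FPKM in KO1 to KO4, against 36.3, 36.8, 38.9 and 47.8 in WT1 to WT4, with no overlap (log2 -0.97, SE 0.17, adjusted p = 0.0173, limma). The spindle kinesin genes Kif14 (-0.87), Kif11 (-0.83) and Kif4 (-0.77), the kinetochore genes Nuf2 (-0.80), Cenpe (-0.72) and Ndc80 (-0.60), the condensin genes Smc2 (-0.64) and Smc4 (-0.62) and the checkpoint kinase gene Bub1 (-0.77) fell. Other mitotic genes had differences above 0 that did not pass: Cdc20 had a difference of 0.51, Aurka of 0.45 and Plk1 of 0.24. Of 46 G1/S and replication genes, the GINS subunit gene Gins2 (0.56) alone passed, and the median was -0.05. No mitosis gene passed without WT2 or without WT1, WT3 and KO2, where the median was -0.44.

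A few pre-mRNA splicing genes passed. Of 42 SR and hnRNP regulators 6 fell, beside 6.26% of all genes, Pnisr (-0.77), Hnrnph1 (-0.73), Ptbp2 (-0.72), Luc7l3 (-0.72), Hnrnph3 (-0.65) and Srsf10 (-0.55), and Luc7l rose by 0.52 (median -0.35). Hnrnph1, an exon-definition factor, measured 90.7, 86.3, 60.1 and 65.8 FPKM in KO1 to KO4, against 84.9, 155, 139 and 130 in WT1 to WT4, and KO1 and KO2 lay above WT1. Of 40 core snRNP protein genes 4 rose, beside 7.35% of all genes, including Snrpd2 (0.76), Sf3b5 (0.65) and Lsm4 (0.62), and none fell (median 0.27, and -0.09 in TPM against the shift of -0.317). No member of either list passed without WT2, WT3 or the 3 libraries together, and 23 SR and hnRNP genes passed without WT1. The median gene length was 6210 bases in the SR and hnRNP list and 3307 in the core list.

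Difference followed gene length and level across all genes. With the genes in 4 equal groups by annotated length, the median log2 difference was 0.25 in the shortest (up to 2422 bases), 0.16, -0.04 and -0.26 in the longest (from 6537 bases), with 367 risen and 72 fallen genes in the shortest and 54 and 393 in the longest. In 4 equal groups by mean level it was -0.16, -0.10, 0.02 and 0.25 from lowest to highest. Among the shortest genes the median deviation from the mean of all libraries was -0.01 in KO1, 0.21 in KO2, 0.13 in KO3 and 0.21 in KO4, against -0.12, -0.11, -0.10 and -0.08 in WT1 to WT4. KO1 did not carry the length pattern that the other KO libraries showed. After removal of a smooth length trend 942 genes passed, and the medians were 0.30 for cytosolic ribosomal proteins, 0.90 for glycolysis and -0.28 for mitosis. The part of length in the ribosomal, mitochondrial and mitotic results was not tested further.

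Neural progenitor genes were lower in KO, with WT4 nearest to the KO range. Of 32 tested neural progenitor genes 6 fell, beside 6.26% of all genes, and none rose. The median log2 difference was -0.53 (-0.37 without WT1, WT3 and KO2, where none passed). No gene of this list passed without WT2, and 1 passed without KO2, KO4 or WT3, against 8 without WT1 or WT4. Fabp7, the brain fatty acid-binding protein of radial glia, measured 3.18, 3.75, 2.745 and 2.97 FPKM in KO1 to KO4, against 14.9, 18.5, 13.9 and 4.97 in WT1 to WT4 (log2 -1.76, SE 0.33, adjusted p = 0.0193, limma). Lrrn1, a leucine-rich repeat membrane protein, measured 2.60, 2.32, 1.58 and 1.63 FPKM in KO1 to KO4, against 11.2, 8.26, 11.9 and 3.34 in WT1 to WT4 (log2 -1.74). Dbx1, a homeobox gene of intermediate neural tube domains, measured 1.87, 1.42, 2.44 and 0.795 FPKM in KO1 to KO4, against 6.62, 5.99, 10.3 and 2.92 in WT1 to WT4 (log2 -1.66). All 3 genes were lower in every KO library, and WT4 was the lowest WT library each time. The intermediate filament gene Nes (-0.94), Prom1 (-0.78) and Sox11 (-0.64) also fell.

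Regional and neuronal genes gave smaller counts, where 7.35% of all tested genes rose and 6.26% fell. Of 26 forebrain and eye genes Nkx2-1 (-1.76), Pou3f4 (-1.70) and Pax6 (-1.01) fell. Nkx2-1, a ventral forebrain gene, measured 0.417, 0.751, 0.873 and 0.175 FPKM in KO1 to KO4, against 8.62, 2.21, 2.91 and 1.16 in WT1 to WT4, with WT1 far above the rest. The forebrain list median was -0.30, and -0.07 without WT1, WT3 and KO2. Of 22 midbrain and hindbrain genes En1 (1.04) and Pax8 (0.79), both of the midbrain-hindbrain boundary, rose. Of 25 neuronal differentiation genes Insm1 (-1.79) and Ebf2 (-0.88) fell and Lhx1 (1.58), also a gene of nephric mesoderm, rose. The neural crest list gave 1 rise, Sox10 (0.71), and 1 fall, Prrx1 (-0.77), of 28. None of these passed without WT1, WT3 and KO2.

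Mesodermal lists differed in how far they rested on WT1, WT3 and KO2. The 7 heart markers summed to 128 to 749 FPKM in KO and 13.8 to 503 in WT, and the 7 tailbud markers to 5.59 to 89.0 in KO and 1.11 to 125 in WT. Cardiomyocyte genes had a median of 1.26 with all libraries and -0.21 without WT1, WT3 and KO2, and 1 of 37, Irx4 (0.69), rose. Trunk Hox genes of groups 1 to 8 had medians of 0.51 and -0.05, and posterior Hox genes of groups 9 to 13 of 0.61 and -0.16, with and without those libraries, and none passed. The posterior Hox genes summed to 34.6 to 103 FPKM in KO and to 0.910, 59.1, 69.4 and 119.6 in WT1 to WT4, so WT3 was not low in that list as a whole. Of 22 tailbud genes Sp5 (1.00), a target of Wnt signalling, and Lin28a (0.77) rose, beside 7.35% of all genes. Sp5 measured 14.2, 22.5, 13.9 and 16.1 FPKM in KO1 to KO4, against 5.74, 9.27, 9.16 and 8.22 in WT1 to WT4, and was above the WT range also in KO2, which was low in T. Of 24 somite and segmentation genes 3 fell, beside 6.26% of all genes: Meox2 (-1.52), Dll1 (-0.99) and Eya1 (-0.76). The list median of -0.26 was the same without the 3 libraries. Dll1, the Notch ligand of presomitic mesoderm and neural progenitors, measured 4.51, 3.47, 3.13 and 3.30 FPKM in KO1 to KO4, against 6.10, 6.47, 9.19 and 9.05 in WT1 to WT4.

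Some gut and surface epithelium genes were higher in KO. Of 26 gut and surface epithelium genes 8 rose, beside 7.35% of all genes, and none fell. The median log2 difference was 0.60 (0.33 without WT1, WT3 and KO2, where none passed). Krt19, a simple-epithelium keratin, measured 33.1, 63.9, 73.2 and 44.9 FPKM in KO1 to KO4, against 9.22, 15.5, 16.3 and 23.5 in WT1 to WT4 (log2 1.71, SE 0.30, adjusted p = 0.0173, limma). Its pairing partner Krt8 measured 149, 366, 261 and 228 FPKM in KO1 to KO4, against 97.8, 108, 59.1 and 152 in WT1 to WT4 (log2 1.27), and KO1 lay just under WT4. Krt18 (1.21), Krt5 (1.07), the serine protease inhibitor genes Spint1 (0.88) and Spint2 (0.76) and the tight junction genes Cldn6 (0.85) and Cldn4 (0.82) rose. KO2 was the highest library for Krt8, Krt18 and Cldn6 and also had the highest summed visceral endoderm markers. No epithelial gene passed without KO2, WT2 or WT3.

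Few extra-embryonic genes passed, where 7.35% of all tested genes rose and 6.26% fell. Of 12 trophoblast and decidua genes 3 rose, Phlda2 (1.87), Fst (0.96) and Tfap2c (0.81). The imprinted growth-restraining gene Phlda2 measured 21.6, 27.1, 72.9 and 52.7 FPKM in KO1 to KO4, against 6.18, 11.1, 4.94 and 30.9 in WT1 to WT4, so WT4 overlapped the KO range. The decidual prolactin gene Prl8a2 measured 0.189, 39.2, 28.3 and 68.4 FPKM in KO1 to KO4, against 0, 1.17, 20.5 and 2.55 in WT1 to WT4, and did not pass. Visceral endoderm genes had a median of 0.43, and -0.95 without WT1, WT3 and KO2. Of 20, the protease gene Ctsz (1.00) and the protease inhibitor gene Cst3 (0.91) rose, and the selenium carrier gene Selenop (-0.96) fell. Macrophage genes were mostly under the filter, and the cytokine receptor gene Csf2rb fell by 1.71, with 0.0652 to 0.2004 FPKM in KO and 1.35 to 2.45 in WT.

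Several stress and metabolic lists gave few calls, where 7.35% of all tested genes rose and 6.26% fell. Of 23 antioxidant genes 6 rose and none fell (median 0.37). Mt2, a metallothionein, measured 1.51, 3.54, 3.85 and 1.51 FPKM in KO1 to KO4, against 0.0957, 0, 0.518 and 0.581 in WT1 to WT4 (log2 1.94), at levels near the pseudocount. Hmox1, which degrades haem, measured 19.4, 19.9, 26.9 and 19.6 FPKM in KO1 to KO4, against 11.9, 9.46, 10.6 and 9.11 in WT1 to WT4 (log2 1.02, SE 0.15, adjusted p = 0.0107, limma). The superoxide dismutase gene Sod1 (0.69) and the pentose phosphate genes Taldo1 (0.61), Tkt (0.56) and Pgd (0.54) completed the group, while Nqo1 (-0.53) and Gclm (-0.27), classical NRF2 targets, did not pass.

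Of 30 sterol synthesis genes 4 fell and none rose, where 6.26% of all tested genes fell and 7.35% rose. The mevalonate pathway genes Idi1 (-1.05) and Hmgcs1 (-0.999) and the later enzymes Msmo1 (-0.72) and Sc5d (-0.59) fell, with a median of -0.18. Hmgcs1 measured 24.2, 15.6, 20.1 and 17.3 FPKM in KO1 to KO4, against 26.9, 44.3, 40.5 and 45.8 in WT1 to WT4. Amino acid stress genes gave 3 rises and 1 fall of 24 (median 0.07), with Sesn2 shared with the p53 list. Cytosolic tRNA synthetase genes gave 2 rises and 1 fall of 20 (median 0.02). Among structural and imprinted genes, the beta-tubulin gene Tubb6 (0.97) and Tuba1c (0.57) rose of 12 tubulin genes, the matrix glycoprotein gene Fbln1 (0.90) of 22 basement membrane genes, and Ndn (0.55) and Phlda2 of 27 imprinted genes. Of 15 snoRNA host genes Snhg15 (0.83) rose.

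Few genes that read or make the cap passed, where 7.35% of all tested genes rose and 6.26% fell. Of 24 cap enzyme and cap-binding genes the translation repressor gene Eif4ebp1 rose, with 64.6, 73.5, 75.3 and 81.5 FPKM in KO1 to KO4, against 30.47, 28.3, 34.3 and 41.4 in WT1 to WT4 (log2 1.13, SE 0.15, adjusted p = 0.00626, limma), and the hypermethylase gene Tgs1 fell by 0.63. The median of that list was 0.03. Of the interferon and RNA-sensing genes 27 were under the filter, and among 12 tested Bst2 (1.32), Ifitm3 (1.198) and Ifitm2 (1.02) rose, with a median of 0.14. Bst2 measured 8.99, 10.8, 6.95 and 10.7 FPKM in KO1 to KO4, against 2.37, 5.42, 2.92 and 3.53 in WT1 to WT4. None of these interferon genes passed without KO2 or WT3.

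Ahi1, a component of the ciliary transition zone, had one of the largest falls. It measured 0.80, 0.510, 0.684 and 0.795 FPKM in KO1 to KO4, against 5.13, 4.30, 4.20 and 3.46 in WT1 to WT4 (log2 -1.99, SE 0.18, adjusted p = 0.000778, limma). Every KO library was far under the WT range, and Ahi1 passed also without WT1, WT3 and KO2. Of 18 transition zone genes Iqcb1 (-0.96) and Cc2d2a (-0.91) fell too and Tmem107 rose by 0.64. Of 17 hedgehog pathway genes Cdon (-0.71), a co-receptor gene, and Gpr161 (-0.62), a ciliary repressor gene, fell. Of all tested genes 6.26% fell and 7.35% rose.

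**Figure D5:**
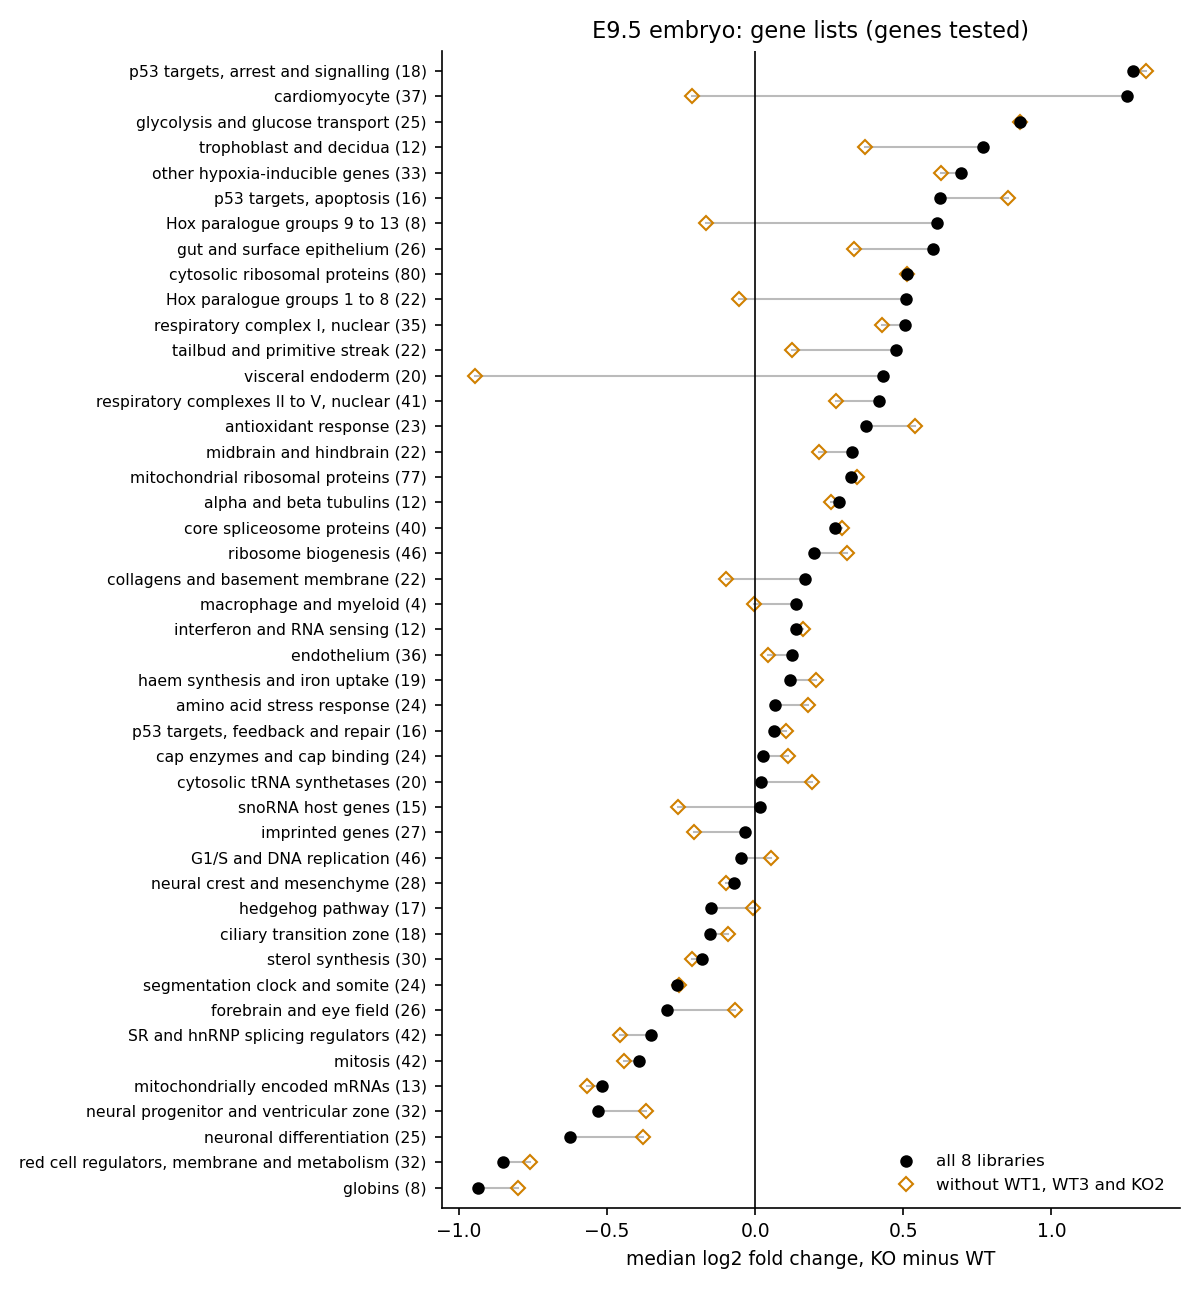
Median log2 difference KO minus WT (x axis) of each of the 45 gene lists, with all 8 libraries (filled circles) and without WT1, WT3 and KO2 (open diamonds). The p53 arrest, p53 apoptosis, glycolysis and other hypoxia-inducible lists stay between 0.62 and 1.32 in both, while the cardiomyocyte list goes to -0.21 and the visceral endoderm list to -0.95 without the 3 libraries.

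Among protein-coding genes with a mean of at least 2 FPKM, no overlap between genotypes and no place on a p53, hypoxia or glycolysis list, Ak1 and Cox6b2 had the largest rises. Ak1, the cytosolic adenylate kinase, measured 31.1, 42.6, 45.8 and 34.8 FPKM in KO1 to KO4, against 6.86, 7.58, 5.21 and 10.1 in WT1 to WT4 (log2 2.32, SE 0.20, adjusted p = 0.000667, limma). Cox6b2, the testis form of a cytochrome oxidase subunit, measured 20.9, 17.1, 12.4 and 18 FPKM in KO1 to KO4, against 1.42, 4.41, 4.12 and 2.78 in WT1 to WT4 (log2 2.32). Sfrp5, a secreted Wnt antagonist, measured 11.3, 14.3, 16.3 and 14.6 FPKM in KO1 to KO4, against 0.267, 4.83, 1.95 and 8.995 in WT1 to WT4 (log2 2.22, adjusted p = 0.0437, limma). The lack of overlap was a condition of the choice, and WT1 was the lowest WT library for Cox6b2 and Sfrp5.

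Among fallen genes, Tia1, a stress granule and splicing protein gene, measured 2.18, 1.53, 0.996 and 1.66 FPKM in KO1 to KO4, against 4.68, 6.46, 4.75 and 4.69 in WT1 to WT4 (log2 -1.45, SE 0.20, adjusted p = 0.00882, limma). Fv1, a retrovirus restriction gene, fell by 1.62 and the zinc finger gene Zkscan8 by 1.37. Genes were named here only where the genotypes did not overlap, so that trait of the 3 was set by the choice.

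The 87 genes that passed in all 8 fits leaving out 1 library held 10 of the 11 risen p53 arrest genes, 6 of the 7 risen p53 apoptosis genes, 5 glycolysis genes and 7 other hypoxia genes, and no ribosomal protein or mitosis gene. Further members, picked after their values were seen, were Azin2 (1.90), an antizyme inhibitor gene, Car4 (1.86), a membrane carbonic anhydrase gene, Dcxr (1.77), a xylulose reductase gene, Serpine2 (1.73), a protease inhibitor gene, Slc19a2 (1.60), a thiamine transporter gene, and Bsg (1.29), the chaperone gene of lactate transporters. Azin2 measured 5.48, 4.66, 3.23 and 4.75 FPKM in KO1 to KO4, against 0.895, 0.633, 1.14 and 0.722 in WT1 to WT4. Fallen members included Cntln (-1.38), a centriole gene, Ulk2 (-1.17), an autophagy kinase gene, Baz1a (-1.11), a chromatin remodeller gene, and Upf2 (-1.02), a nonsense-mediated decay gene. Upf2 measured 4.83, 3.82, 3.95 and 3.52 FPKM in KO1 to KO4, against 6.62, 9.14, 9.66 and 9.43 in WT1 to WT4.

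The genotype effect was compared with that in the E9.5 yolk sac in a joint fit of 16 libraries. The difference of effects passed for 234 of 10511 genes (2.23%), 147 above 0 (1.4%) and 87 below 0 (0.828%). For glycolysis the difference passed above 0 for 11 of 24 genes and below 0 for none, with a median of 1.01, and in the yolk sac itself the list had 1 rise of 24, where 1.22% of all genes rose. The 11 were Aldoa, Eno1, Gpi1, Ldha, Pdk1, Pfkfb3, Pfkl, Pfkp, Pgam1, Pkm and Tpi1. The count was 13 without WT1, WT3 and KO2 and 3 to 14 without 1 library. Cdkn1a rose in both tissues and by 1.59 more in the embryo (3.66 in embryo and 2.07 in yolk sac, adjusted p of the difference 0.00519, limma), and the difference also passed above 0 for Phlda3, Sesn2, Gtse1, Bax, Eda2r and Tnfrsf10b. Leaving out 1 library gave 3 to 7 p53 arrest genes and 0 to 6 p53 apoptosis genes, 0 without KO4, WT2 or WT3 and 1 without KO2 or KO3.

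Other genes also differed between the tissues. Hmox1 rose by 1.02 in embryo and had -0.25 in yolk sac, which did not pass, Sesn3 had a log2 difference of -0.81 in embryo and 0.71 in yolk sac, and the arterial connexin gene Gja5 of -0.45 in embryo and -2.82 in yolk sac (adjusted p of each difference 0.00519, limma). Gja5 measured 1.68, 0.779, 1.59 and 1.46 FPKM in KO1 to KO4, against 2.58, 1.73, 1.12 and 3.03 in WT1 to WT4 in the embryo. Embryo and yolk sac of 1 conceptus may be related, which the labels do not say.

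Against the E8.5 embryo, the difference of effects passed for 6 of 11595 genes (0.0517%), all above 0. Bnip3 differed by 1.43 at E9.5 and -0.44 at E8.5 (difference 1.87, adjusted p = 0.000732, limma), and Ndufa4l2 by 2.74 at E9.5 and -0.42 at E8.5 (difference 3.15, adjusted p = 0.0087, limma). At E8.5 no glycolysis gene and no other hypoxia gene passed, with medians of 0.06 and -0.05, while 9 of 18 p53 arrest genes rose with a median of 1.14, where 0.528% of all genes rose. No single glycolysis gene passed the test of the difference between stages, although the median difference was 0.88. The other genes were the mitochondrial tRNA gene mt-Ti (difference 5.12) and the pseudogenes Gm10221, Gm12191 and Gm4739, chosen here because they complete the 6. mt-Ti rose by 2.40 at E9.5 and fell by 2.72 at E8.5. The pseudogenes, in that order, had 0.32, -0.02 and 0.27 at E9.5, where none passed. At E8.5 they fell, with -1.53, -2.79 and -1.88, so their differences above 0 were not rises at E9.5.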

How the data were processed

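The deposited values are FPKM per gene and library, made by the authors, for 54532 gene identifiers, of which 54495 matched GENCODE M21. The submitters' processing notes name GRCm38 (mm10) and DESeq2, and nothing in the sources used here gives the aligner, the counting or its use of strand, so overlapping antisense genes could not be told apart. Low FPKM values stood at whole fragments for 97.9% to 98.4% of values per library (tolerance 0.02), which gave the depths stated above.

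FPKM were divided by median-of-ratios factors over the genes that reached FPKM 1 in 4 or more of the 8 libraries, the genes tested. Differences KO minus WT were tested on log2(scaled FPKM + 0.5) with limma 3.58.1 in R 4.3.3, empirical Bayes with a trend and Benjamini-Hochberg adjustment over all genes tested, at 0.05, and a log2 difference on this scale understates the change of low genes. Differences of effects came from joint fits of 16 libraries. The fits were tested on simulated data. Tables and figures used Python 3.11.15 with pandas 2.3.3 and matplotlib 3.10.9.

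The members and the 45 gene lists were chosen with earlier results of these data known, and no list was tested as a set. Named genes were up to 12 in each direction with the largest difference (protein-coding, mean FPKM of at least 2, no overlap), up to 3 in each direction per list, and up to 3 in each direction per difference of effects. Further list members were named to account for the lists. Y-linked genes and Xist were left out, and some list members are not reported here. Same-numbered KO and WT libraries had correlations of deviations of -0.02, -0.06, -0.21 and 0.15, so the numbers were not taken to pair them.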

Additional observations from a re-analysis of the deposited data

Results flagged for a closer look

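Of 258 groups of 4 libraries (129 named genes in KO and in WT), 15 held 1 library set apart from the other 3 by Dixon's ratio at its 95% value, where chance gives about 1 in 20. Among KO libraries, T was 0.990 FPKM in KO2 (others 8.86 to 10.4), Mgmt 6.11 in KO4 (3.83 to 4.14), Fech 15.96 in KO4 (5.69 to 7.06), and Hmox1 26.9 in KO3 (19.4 to 19.9). KO1 stood apart for Ndufa7 at 57.8 (86.4 to 91.1), mt-Nd4l at 5.39 (9.29 to 10.1), Emcn at 1.92 (1.34 to 1.44) and Prrx1 at 5.42 (3.21 to 3.42).

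Among WT libraries, WT2 stood apart for Tia1 at 6.46 (4.68 to 4.75), Selenop at 24.9 (10.2 to 12.5) and Sesn3 at 7.88 (5.78 to 6.03). WT3 stood apart for Csf2rb at 2.45 (1.35 to 1.38) and En1 at 6.89 (2.76 to 3.39), WT4 for Mrpl14 at 37.2 (24.7 to 25.5) and WT1 for Tfap2c at 6.87 (3.19 to 3.41).

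The genotype effect differed between embryo and yolk sac for 234 genes in a joint limma fit. On the log2 scale, embryo minus yolk sac, the difference was 2.37 for Gja5, 1.59 for Cdkn1a, 1.27 for Hmox1, -1.52 for Sesn3, -1.10 for the dynein light chain gene Dynlt3 and -0.90 for the zinc finger gene Zfp62. Between E9.5 and E8.5 embryos it differed for 6 genes, among them mt-Ti at 5.12, Ndufa4l2 at 3.15 and Bnip3 at 1.87.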

How the results depend on the processing

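Of 12027 genes, 1637 passed as reported. The count was 1604 and 1659 with pseudocounts of 0.1 and 1, 1719 on FPKM as deposited, 1298 with quantile normalization, 1531 without the variance trend and 2095 with voom on recovered fragments. It moved to 3498 with array weights, 942 with the gene length trend removed, 112 with no filter on low values (29833 genes tested), 3282 rescaled to TPM (137 higher, 3145 lower) and 35 without WT1, WT3 and KO2, where fewer libraries were fitted. Leaving out 1 library gave 97 (WT2) to 2727 (WT1), with 133 without WT3, 209 without KO2, 261 without KO3, 272 without KO4 and 593 without WT4.

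Embryo minus yolk sac, 234 genes passed, against 1729 with array weights, 107 with no filter, 983 in TPM, 980 without WT1, WT3 and KO2, and 28 (WT2) to 1413 (WT1) leaving out 1 library. E9.5 minus E8.5, 6 genes passed, against 10 on FPKM as deposited and 13 with array weights, and 4 to 7 leaving out 1 library. Where no construction shows it, the cause of a move was not tested.

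Cmtr2 fell by 1.94 and, without WT1, WT3 and KO2, had -1.80 with an adjusted p of 0.0580 in limma. Leaving out 1 library gave -2.05 to -1.88. T turned to -0.387 with array weights, -0.308 without WT1, -0.0551 without WT3 and -0.71 without the 3 libraries, and reached 1.12 without KO2. Hoxc10 turned to -0.317 with array weights, -0.00164 with voom, -0.0975 without KO1, -0.34 without WT1 and -0.316 without the 3 libraries, where Myl7 turned to -0.212. Hoxc10 reached 1.58 without KO2.

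With the replicate number as a block 146 genes passed in the embryo (108 higher, 38 lower), 45 embryo minus yolk sac and 5 between stages. Same-numbered libraries did not deviate together, so the numbers were not taken as pairs. Which libraries shared a litter is not given in the labels, and litter was not modelled. Of 123 named genes that passed, 38 also passed with the block, 15 without the 3 libraries, 25 with no filter, 76 with the length trend removed and 74 in TPM. Depth limits genes near 1 FPKM, where a value rests on few fragments.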
